A study of Mus musculus with 16 samples.

Results

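The comparison described here is the high-fat effect on the mouse liver, averaged over mice that did and did not receive a krill extract. It used all 16 liver libraries of the series, 8 from mice on high fat and 8 from mice on the normal diet. The mice were male C57BL/6J, an inbred strain, housed from 4 weeks of age and fed for 18 weeks in 4 groups of 4. HF mice ate a diet with 45% fat (D12451), and HFW mice ate the high-fat diet with 1% WEPAK, the water-soluble fraction extracted from Pacific krill. N mice ate a diet with 10% fat (D12450B), and NW mice ate the normal diet with 1% WEPAK. Each library came from the liver of 1 mouse, named by its group and number. The effect was the average of HF minus N and HFW minus NW, so each of the 2 contrasts compares mice in the same extract state, and no mouse enters both.

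Liver RNA was measured by SuperSAGE, which sequences a short tag next to a cutting site of the enzyme NlaIII in each polyadenylated transcript, so counts do not scale with transcript length. The mean total was 97315 ± 31192 tags in high-fat mice and 75080 ± 22897 tags in normal-diet mice (SD, n = 8 each). By group it was 118882 ± 23746 in HF, 75749 ± 21588 in HFW, 75963 ± 16768 in N and 74198 ± 30660 in NW (SD, n = 4 each). The difference in depth thus lay mainly between HF and N. The deepest libraries were HF mouse 25 with 149349 tags and NW mouse 12 with 120143. Taken over both extract states, the difference had p = 0.1045 in an exact two-sided permutation test within extract states. A total of 1046 genes had enough tags to be tested. Levels are given as CPM, tag counts scaled to a common normalized library size. All 14 hepatocyte markers on the list had a tag, and albumin (Alb) had 3173 to 6555 CPM in high-fat mice and 4738 to 8590 CPM in normal-diet mice. The libraries are of whole liver, so fewer cells of a type and less RNA per cell cannot be told apart.

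The liver takes up dietary fatty acids, makes its own from carbohydrate, joins both into triglyceride, and either stores them in lipid droplets, exports them in lipoproteins or burns them in mitochondria and peroxisomes. Synthesis of fatty acids is driven by insulin and carbohydrate through the factor SREBP1c (gene Srebf1), and the desaturase SCD1 adds the double bond that turns saturated into monounsaturated fatty acids. Oxidation genes are switched on through the fatty acid receptor PPARalpha (gene Ppara). Hepatocytes also differ by place: those near the portal vein make glucose and urea, and those near the central vein hold most of the drug-metabolising enzymes.

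Of 1046 genes tested, 6 passed at an adjusted p under 0.05, which is 0.574% of them (edgeR quasi-likelihood test, Benjamini-Hochberg adjusted over all genes). Ephx1, Glrx5 and Chmp4b rose on high fat (0.287%), and Scd1, Fbxo3 and Iigp1 fell (0.287%). With DESeq2 size factors in place of the main scaling 8 genes passed, the same 6 among them, 5 higher and 3 lower. The tags by which 5 of these genes can be counted are shown because the method counts such short sequences. Counts were summed over the RefSeq transcripts of a gene, and Fbxo3 had tags on 2 of them, so its value is not a count of the printed tag alone. Each is the 26 bases from the last NlaIII site of a GENCODE M21 transcript on GRCm38, with the NlaIII site CATG in capitals:
Ephx1: CATGgctttaatgataaatgggttta
Glrx5: CATGactgtcattcagcttaatttga
Chmp4b: CATGtctaccatcctggcccttgtca
Scd1: CATGaaaaccattgcaggaaaccttt
Fbxo3: CATGgaggccactagcattattggat

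All 5 lie in untranslated sequence, and none occurs at any NlaIII site in a transcript of another gene. The Ephx1 tag lies at chr1:180989563-180989588 on the minus strand and the Scd1 tag at chr19:44394617-44394642 on the minus strand. The plus strand holds the Glrx5 tag at chr12:105042774-105042799, the Chmp4b tag at chr2:154694520-154694545 and the Fbxo3 tag at chr2:104063102-104063127. Of the 87 genes matched in this way, 82 had a tag found in no other gene. One of the other 5 is Eef1b2, a translation elongation factor subunit. Its tag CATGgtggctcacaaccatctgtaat occurs at an NlaIII site, the last or an earlier one, of 189 other genes. Its counts therefore cannot be assigned to it alone.

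Ephx1 encodes the microsomal epoxide hydrolase, which opens reactive epoxides made by cytochrome P450 enzymes. It had 428.1, 289.6, 249.7 and 229.8 CPM in HF mice, against 151.2, 215.4, 89.7 and 93.81 CPM in N mice. With the extract it had 209.7, 217.1, 147.2 and 201.8 CPM in HFW mice, against 38.49, 67.18, 0 and 78.54 CPM in NW mice. The groups overlapped in neither extract state. Over both states the log2 fold change was 1.49 (SE 0.30, adjusted p = 0.0221, edgeR quasi-likelihood test), with 1.05 in HF minus N and 1.94 in HFW minus NW. These levels rest on few tags, 24 to 41 in each HF library, 7 to 19 in HFW, 5 to 20 in N and 0 to 7 in NW. A count of 0 in NW mouse 15 allows up to 3 tags, and such limits cover counting error only, since PCR copies are not separated.

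Glrx5 encodes a mitochondrial glutaredoxin that passes iron-sulfur clusters to other proteins. It had 1272, 1151, 1720 and 861.7 CPM in HF mice, against 1260, 624.7, 672.7 and 375.3 CPM in N mice. In HFW mice it had 733.9, 710.6, 778 and 860.5 CPM, against 269.5, 355.1, 380.7 and 432 CPM in NW mice. HFW and NW did not overlap, while N mouse 4 lay inside the range of HF. Its log2 fold change was 0.94 (SE 0.21, adjusted p = 0.0291, edgeR quasi-likelihood test).

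Chmp4b encodes a subunit of ESCRT-III, the complex that pinches off membranes in multivesicular bodies and in cell division. Its level was 1570, 1681, 1156 and 813.9 CPM in HF mice, against 1059, 667.8, 702.6 and 731.7 CPM in N mice. The HFW mice had 1114, 671.1, 693.9 and 488.7 CPM, against 384.9, 422.3, 401.9 and 274.9 CPM in the NW mice. Every HFW mouse lay above every NW mouse, and N mouse 4 was the single N mouse inside the range of HF. On the log2 scale the change was 0.86 (SE 0.21, adjusted p = 0.0468, edgeR quasi-likelihood test).

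Scd1, stearoyl-CoA desaturase, was the most abundant of the 6. It had 2902, 4994, 3940 and 4290 CPM in HF mice, against 9561, 12880, 9044 and 6905 CPM in N mice. It had 10540, 4875, 6623 and 4186 CPM in HFW mice, against 9624, 6382, 14040 and 11720 CPM in NW mice. Every HF mouse was below every N mouse, whereas HFW mice 34 and 38 lay inside the range of NW. The log2 fold change was -0.96 (SE 0.21, adjusted p = 0.0291, edgeR quasi-likelihood test), with -1.25 in HF minus N and -0.67 in HFW minus NW.

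Fbxo3 encodes an F-box protein, the part of a ubiquitin ligase that picks its substrate. It had 95.13, 56.51, 101.7 and 86.17 CPM in HF mice, against 184.8, 247.7, 254.1 and 150.1 CPM in N mice, with no overlap. It had 157.3, 256.6, 336.4 and 297.5 CPM in HFW mice, against 596.7, 374.3, 465.3 and 314.1 CPM in NW mice, where HFW mouse 38 reached into the range of NW. The log2 fold change was -1.04 (SE 0.23, adjusted p = 0.0291, edgeR quasi-likelihood test). Few tags underlie Fbxo3 as well. These numbered 8 to 11 in HF, 12 to 28 in HFW, 8 to 23 in N and 16 to 39 in NW libraries.

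Iigp1 encodes an interferon-inducible GTPase that attacks the vacuoles of intracellular parasites. Its level was 47.57, 70.64, 55.5 and 67.02 CPM in HF mice, against 117.6, 161.6, 89.7 and 243.9 CPM in N mice, with no overlap. The HFW mice had 104.8, 59.21, 63.08 and 116.9 CPM, against 308, 326.3, 105.8 and 98.17 CPM in the NW mice, with overlap. This amounted to a log2 fold change of -1.28 (SE 0.31, adjusted p = 0.0477, edgeR quasi-likelihood test), close to the threshold. It was -1.29 in HF minus N and -1.27 in HFW minus NW. The Iigp1 levels also rest on few tags. These numbered 4 to 10 in HF, 3 to 11 in HFW, 6 to 15 in N and 5 to 34 in NW libraries.

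**Figure D1:**
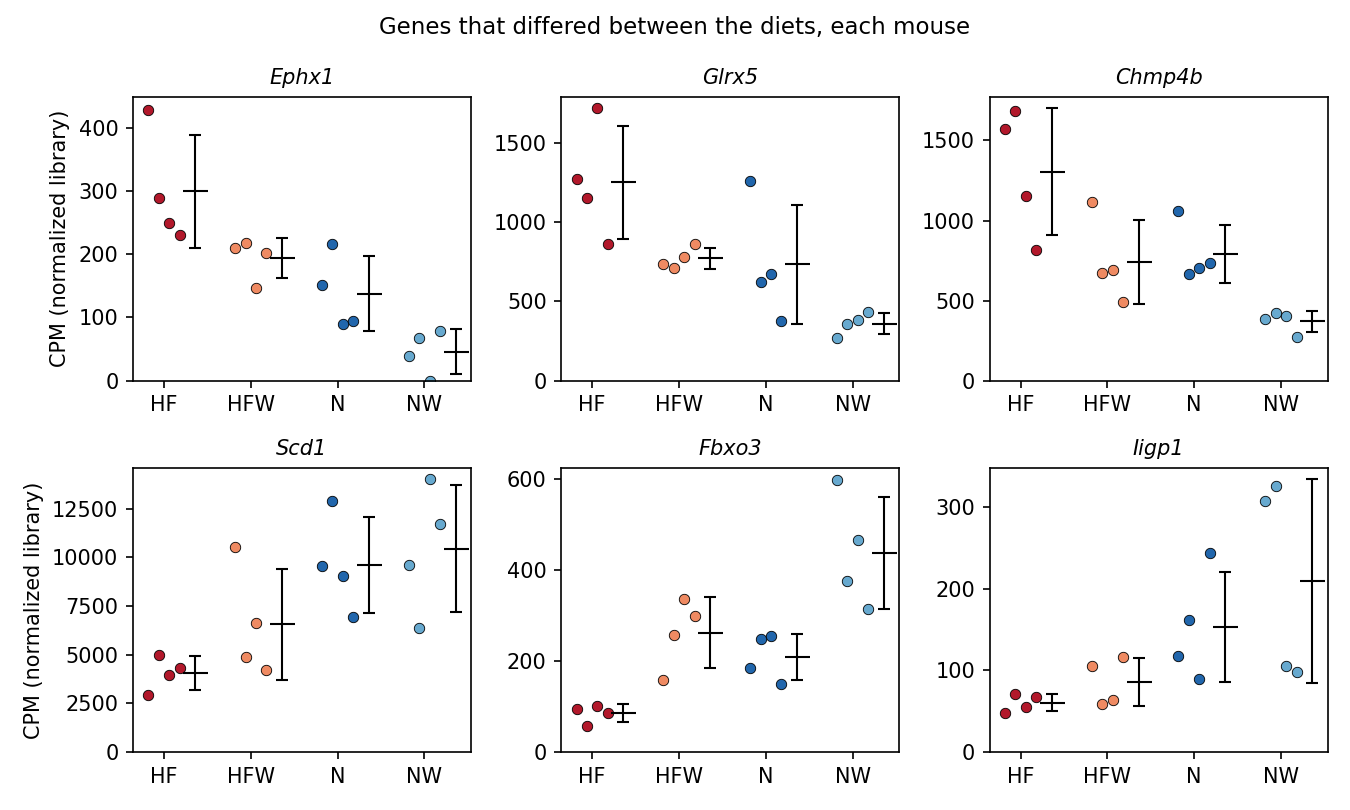
Level of the 6 genes in each mouse, in CPM on axes that start at 0, by group (HF, HFW, N, NW; 4 points each); the dash and bar beside the points are the mean and SD. All HF points lie above all N points for Ephx1 and below them for Scd1, Fbxo3 and Iigp1, and for Glrx5 and Chmp4b N mouse 4 lies inside the range of HF.

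For 5 of the 6 genes, each of the 8 high-fat mice differed from the normal-diet mean of its extract state in the direction of the fold change. The exception was Scd1, with 7 of 8, where HFW mouse 34 was above the NW mean of 10443 CPM. Of all genes tested, 115 (11%) had all 8 high-fat mice in 1 direction in this sense. No gene had all 8 high-fat mice outside the range of all 8 normal-diet mice, with and without extract pooled. The groups did not overlap for 32 genes (3.06%) between HF and N and for 92 genes (8.8%) between HFW and NW. They were apart in both contrasts and in the same direction for 2 genes (0.191%). These were Ephx1 and Aspg, an asparaginase, with a log2 fold change of -0.55 (SE 0.17, adjusted p = 0.0772, edgeR quasi-likelihood test). Aspg had 988.9 to 1637 CPM in HF and 1322 to 1785 CPM in HFW, against 1704 to 2083 CPM in N and 2252 to 2749 CPM in NW.

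The calls depended on single mice. By the edgeR quasi-likelihood test, Ephx1 missed the threshold when HF mouse 23 was left out (1.40, adjusted p = 0.0627), N mouse 7 (1.42, adjusted p = 0.0552), NW mouse 11 (1.46, adjusted p = 0.0501) or NW mouse 15 (1.35, adjusted p = 0.0549). By the edgeR quasi-likelihood test Scd1 missed it when HF mouse 23 was left out (-0.89, adjusted p = 0.0627), N mouse 5 (-0.86, adjusted p = 0.0576), N mouse 7 (-0.97, adjusted p = 0.0552), NW mouse 11 (-0.98, adjusted p = 0.0501) or NW mouse 15 (-0.87, adjusted p = 0.0552). Glrx5 lost its call without HF mouse 23 (0.94), HFW mouse 38 (0.94), N mouse 5 (0.91), N mouse 7 (0.92), N mouse 8 (0.84), NW mouse 11 (0.89), NW mouse 12 (0.94) or NW mouse 15 (0.96). Fbxo3 lost it without HF mouse 23 (-1.06), HF mouse 25 (-0.95), HFW mouse 34 (-0.94), N mouse 5 (-0.97), N mouse 7 (-0.98), NW mouse 11 (-0.95) or NW mouse 15 (-1.02). Chmp4b kept its call without HF mouse 28, HF mouse 29, HFW mouse 36, HFW mouse 40 or N mouse 4, and had 0.72 to 0.90 with an adjusted p of 0.056 to 0.117 without each of the others. Iigp1 kept it without HF mouse 29, HFW mouse 40, N mouse 4 or NW mouse 20, and had -1.37 to -1.10 with an adjusted p of 0.0552 to 0.12 without each of the others. With libraries thinned to 56655 tags, the smallest total, 9 genes passed, and of the 6 Chmp4b alone did not (0.80, adjusted p = 0.0611, edgeR quasi-likelihood test). Chmp4b and Iigp1 also missed the threshold with limma-voom (0.81 and -1.12) and with a non-robust edgeR fit (0.86 and -1.28). Fbxo3 and Iigp1 missed it with no filter on low counts (-0.94 and -1.17), and Chmp4b with a stricter filter (0.85). That stricter filter also removed Ephx1 and Iigp1 from testing. None of the 6 changed direction in any fit named here that tested it.

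N mouse 4 lay on the high-fat side for more genes than the other N mice. Without it 107 of 1205 genes tested passed (8.88%), 62 higher (5.15%) and 45 lower (3.73%), all 6 of the genes above among them, and without N mice 4 and 8 together 55 genes passed, 38 higher and 17 lower, again with all 6. Of the 24 genes made up of the 12 with the smallest p in each direction, N mouse 4 reached or passed the nearest HF mouse for 16, N mouse 5 for 6, N mouse 7 for 2 and N mouse 8 for 4. Over all 1046 genes those numbers were 853 (81.55%), 679 (64.91%), 606 (57.93%) and 512 (48.95%). By contrast, the count was 0 without HF mouse 23, N mouse 7, NW mouse 11 or NW mouse 15, with 199 to 210 genes at an unadjusted p under 0.05 in those fits. It was 2 without N mouse 5, 3 without N mouse 8, 16 without HF mouse 29 and 11 without HFW mouse 40. The labels give no date or batch that sets N mouse 4 apart, and the reason for its position was not tested.

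**Figure D2:**
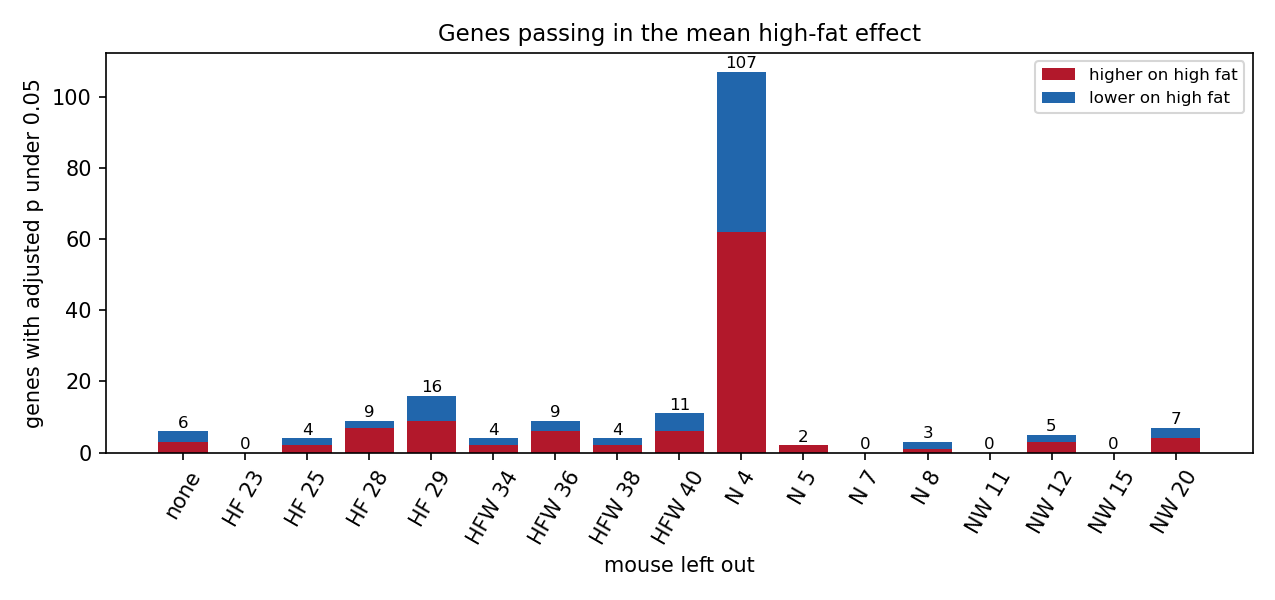
Number of genes with an adjusted p under 0.05 in the mean high-fat effect (y axis, from 0) when no mouse or 1 mouse (x axis) was left out, split into genes higher and lower on high fat. The count is 6 with all mice, 107 without N mouse 4, and 0 without HF mouse 23, N mouse 7, NW mouse 11 or NW mouse 15.

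At an unadjusted p under 0.05 there were 215 genes (20.6% of those tested), 106 higher (10.1%) and 109 lower (10.4%). At an adjusted p under 0.1 there were 57 (5.45%), 29 higher (2.77%) and 28 lower (2.68%). Just outside the threshold were Ptprf, a receptor tyrosine phosphatase that acts on the insulin receptor, and Ctbs, a lysosomal chitobiase, both with an adjusted p of 0.0505 (edgeR quasi-likelihood test). Ptprf had 963.2, 1017, 1008 and 1302 CPM in HF mice, against 688.9, 958.6, 986.6 and 431.5 CPM in N mice. It had 982.9, 552.7, 799 and 584.3 CPM in HFW mice, against 231, 431.9, 359.6 and 255.2 CPM in NW mice. HFW and NW were apart, and N mouse 7 reached into the range of HF. Ctbs had 191.5 to 416.2 CPM in HF and 117.9 to 157.9 CPM in HFW, against 56.29 to 237 CPM in N and 0 to 58.9 CPM in NW.

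The other genes among the 12 with the smallest p in the positive direction did not pass and had these log2 fold changes. Entpd5, a nucleotidase of the endoplasmic reticulum that helps glycoproteins fold, had 1.07 (SE 0.28). Tgm2, a transglutaminase that cross-links proteins, had 1.17 (SE 0.31), with 383 to 748.7 CPM in HF and 157.9 to 602.8 CPM in HFW, against 187.6 to 403.3 CPM in N and 21.15 to 201.5 CPM in NW. Pcsk6, a proprotein convertase, had 1.47 (SE 0.39). Aldh5a1, which ends the breakdown of the transmitter GABA, had 0.98 (SE 0.27), and Paqr7, a membrane progestin receptor, had 0.70 (SE 0.19). Copa, a coat protein of vesicles that return to the endoplasmic reticulum, had 0.74 (SE 0.21), and Fbxl14, another F-box protein, had 1.49 (SE 0.43). In the negative direction were Acaa2, Agxt, Pck1 and Cps1, given with their pathways below, Aspg, given above, and Trfr2, a sensor of iron-loaded transferrin, with -0.66 (SE 0.19). Arsa, the lysosomal arylsulfatase A, had -0.62 (SE 0.19), Eef1b2 -0.77 (SE 0.22), and Mup19, a major urinary protein, -1.51 (SE 0.41). The tag of Mup19 is shared with 14 other genes, so its counts cannot be assigned to one urinary protein gene.

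The 2 contrasts behind the mean effect share no mouse, so each is a separate measurement of the diet. HF minus N had 1 gene past the threshold (0.0956%), Pcsk6, and HFW minus NW had 0 (edgeR quasi-likelihood test), with 103 genes (9.85%) and 126 genes (12%) at an unadjusted p under 0.05. With the DESeq2 Wald test HF minus N had 2 genes. Of the 103, 88 (85.4%) had the same sign in HFW minus NW, and of the 126, 107 (84.9%) had the same sign in HF minus N. Over all 1046 genes the signs were the same for 693 (66.3%). Across genes the log2 fold changes had a Pearson r of 0.499 and a Spearman rho of 0.484 (n = 1046 genes measured in the same libraries, which are not independent replicates). A count of 24 genes had an unadjusted p under 0.05 in both contrasts, 23 of them with the same sign.

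**Figure D3:**
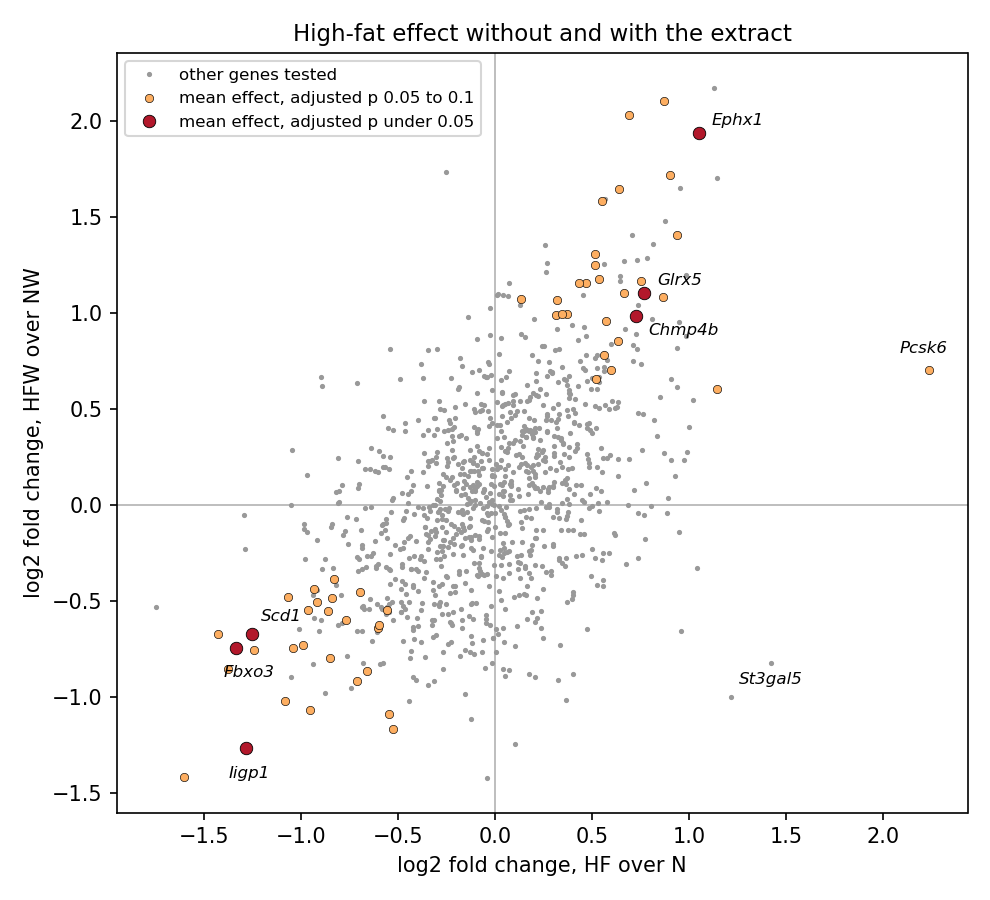
Log2 fold change of each of the 1046 genes tested, HF over N on the x axis and HFW over NW on the y axis, with grey lines at 0. The 6 genes past the threshold in the mean effect (red) lie in the upper right or lower left quadrant, Pcsk6 lies far to the right, and St3gal5 lies in the lower right.

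Pcsk6, the gene past the threshold in HF minus N, had 808.6, 692.2, 240.5 and 258.5 CPM in HF mice, against 252, 75.4, 44.85 and 56.29 CPM in N mice. The HFW mice had 78.63, 78.95, 168.2 and 84.99 CPM, against 76.99, 47.99, 84.6 and 39.27 CPM in the NW mice. N mouse 4 reached into the range of HF, and HFW overlapped NW. Outside HF the Pcsk6 tags were few, 4 to 8 in HFW, 3 to 15 in N and 2 to 5 in NW. The log2 fold change was 2.24 (SE 0.45) in HF minus N and 0.71 (SE 0.62) in HFW minus NW, and their difference had an unadjusted p of 0.0659 (edgeR quasi-likelihood test over all genes). HF minus N had 0 genes past the threshold without HF mouse 23, HF mouse 25, N mouse 5, N mouse 7 or N mouse 8, 2 without HFW mouse 34 and 31 without N mouse 4. Without NW mouse 20, HFW minus NW had 3.

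The test of whether the diet effect differed between extract states passed for 0 of 1046 genes, with 26 (2.49%) at an unadjusted p under 0.05 (edgeR quasi-likelihood test; the DESeq2 Wald test also gave 0). The smallest p belonged to St3gal5, which makes the ganglioside GM3. It had 142.7, 183.7, 111 and 114.9 CPM in HF mice, against 67.21, 53.85, 44.85 and 75.05 CPM in N mice. It had 117.9, 98.69, 42.05 and 63.74 CPM in HFW mice, against 115.5, 172.8, 253.8 and 117.8 CPM in NW mice. St3gal5 tags were few, 12 to 26 in HF, 2 to 9 in HFW, 3 to 5 in N and 6 to 18 in NW. The log2 fold change was 1.22 (SE 0.44) without and -1.0 (SE 0.43) with the extract, and 0.11 (SE 0.31) as their mean. Next were Pqlc1, with 0.40 (SE 0.29) and -0.88 (SE 0.29), and Strbp, with 0.96 (SE 0.39) and -0.66 (SE 0.41). So no gene was shown to respond differently to the diet in the 2 extract states, and a p that misses the threshold does not show that the responses were equal.

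Fatty acid and triglyceride synthesis was represented by 10 tested genes, of which 1 fell, Scd1, and 0 rose. The median log2 fold change of the 10 was -0.335, with 4 positive and 6 negative values. Over all genes tested the median was 0.0123, and 50.9% had a positive value, which is the background for the counts of signs given here and below. Dgat2, which adds the last fatty acid to triglyceride, had 9525, 10270, 9722 and 16890 CPM in HF mice, against 8401, 14170, 17730 and 28010 CPM in N mice. It had 17970, 24020, 18310 and 15660 CPM in HFW mice, against 17860, 27780, 33310 and 27210 CPM in NW mice. The groups overlapped in both states, and its log2 fold change was -0.52 (SE 0.21, adjusted p = 0.17, edgeR quasi-likelihood test). Fasn, which builds palmitate, had 0.29 (SE 0.30). Srebf1 had 0.42 (SE 0.34). For Srebf1 the values differed between states, with -0.14 (SE 0.47) in HF minus N and 0.98 (SE 0.49) in HFW minus NW, where NW mouse 20 had 2238 CPM and the other NW mice 465.3 to 500.4 CPM. Acsl1, which activates fatty acids with coenzyme A, had -0.35 (SE 0.21), and Agpat3, an acyltransferase of phospholipid synthesis, -0.32 (SE 0.22). Without N mouse 4, Dgat2 also passed (-0.63, adjusted p = 0.0341, edgeR quasi-likelihood test), so that 2 of 12 genes then tested fell, Dgat2 and Scd1. Over all 1205 genes in that fit 45 fell (3.73%) and 62 rose (5.15%). That is the background for the list counts without N mouse 4 given here and below. In other fits named below, genes past the threshold were 4 of 1071 without HF mouse 25 and 9 of 1067 without HF mouse 28. They were 16 of 1079 without HF mouse 29, 4 of 1067 without HFW mouse 34 and 11 of 1067 without HFW mouse 40. They were 9 of 1214 without HFW mouse 36, 4 of 1213 without HFW mouse 38 and 7 of 1217 without NW mouse 20.

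Lipid droplet and lipid uptake genes numbered 6 among those tested, and 0 passed, with a median of -0.276. Fitm1, an endoplasmic reticulum protein that helps droplets form, had 2247, 2642, 3117 and 2288 CPM in HF mice, against 3982, 926.3, 1629 and 1126 CPM in N mice. It had 1271, 1559, 1745 and 1084 CPM in HFW mice, against 750.6, 460.7, 571.1 and 765.7 CPM in NW mice. Every HFW mouse was above every NW mouse, and N mouse 4 was above every HF mouse. On the log2 scale Fitm1 had 0.79 (SE 0.24, adjusted p = 0.0772, edgeR quasi-likelihood test), and without N mouse 4 it was 1.12 (adjusted p = 0.000457). Hsd17b13, an enzyme on the surface of hepatocyte lipid droplets, had the opposite sign, -0.61 (SE 0.19). It had 963.2 to 1158 CPM in HF and 1296 to 1835 CPM in HFW, against 1193 to 2439 CPM in N and 1335 to 3071 CPM in NW, so that HF and N did not overlap. Slc27a2, a fatty acid transporter and very long chain acyl-CoA synthetase, had -0.39 (SE 0.17). Besides Fitm1, Hsd17b13 also passed when N mouse 4 was left out, as a gene that fell. Cd36, a fatty acid uptake receptor, was too low to be tested, with 22 tags over the 8 high-fat libraries and 11 over the 8 normal-diet libraries.

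Mitochondrial beta-oxidation and ketogenesis had 11 tested genes, 0 past the threshold, with 6 positive and 5 negative values and a median of 0.0544. Acaa2, the thiolase of the last step of the mitochondrial cycle, had 130.8, 113, 148 and 220.2 CPM in HF mice, against 168, 237, 343.8 and 487.8 CPM in N mice. It had 340.7, 335.5, 630.8 and 435.6 CPM in HFW mice, against 673.6, 633.4, 803.7 and 765.7 CPM in NW mice. HFW mouse 38, at 630.8 CPM, was just under the lowest NW mouse, and N mouse 4 lay inside the range of HF. For Acaa2 the log2 fold change was -0.86 (SE 0.23, adjusted p = 0.0578, edgeR quasi-likelihood test). Etfa, which hands electrons from the acyl-CoA dehydrogenases to the respiratory chain, had -0.61 (SE 0.20). Acadvl, the dehydrogenase for very long chains, had 0.48 (SE 0.18), and Acot2, a mitochondrial thioesterase, 0.68 (SE 0.30). Members of the same pathway thus had values of both signs. When N mouse 4 was left out 3 of 11 passed, Acaa2 and Etfa among those, 1 higher and 2 lower, and Acaa2 also passed without HF mouse 29.

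Peroxisomal beta-oxidation and PPARalpha target genes were more one-sided: of 12 tested, 10 had a negative value and 2 a positive one, with a median of -0.466, and 0 passed. Ehhadh, the peroxisomal bifunctional enzyme, had 83.24, 190.7, 9.25 and 76.6 CPM in HF mice, against 252, 150.8, 269.1 and 337.7 CPM in N mice. It had 131.1, 217.1, 42.05 and 63.74 CPM in HFW mice, against 154, 259.1, 169.2 and 196.3 CPM in NW mice. HF mouse 25 and HFW mouse 36 lay inside the range of the normal-diet mice, and the log2 fold change was -1.11 (SE 0.34, adjusted p = 0.0772, edgeR quasi-likelihood test). Ehhadh tags were few, 1 to 27 in HF, 2 to 11 in HFW, 14 to 18 in N and 8 to 27 in NW. The peroxisomal thiolases Acaa1b and Acaa1a had -1.14 (SE 0.38) and -0.58 (SE 0.22), and catalase (Cat), which breaks down the hydrogen peroxide of this pathway, had -0.72 (SE 0.28). Cyp4a14, a fatty acid hydroxylase and PPARalpha target, had -0.73 (SE 0.41), made of -0.04 (SE 0.55) in HF minus N and -1.42 (SE 0.60) in HFW minus NW. Leaving out N mouse 4 gave 2 genes that fell, Acaa1a and Acaa1b, and leaving out HF mouse 25 gave 1, Ehhadh. Ppara itself was below the filter, with 20 tags over the high-fat libraries and 21 over the normal-diet libraries.

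Gluconeogenesis, glycolysis, glycogen and insulin response had 10 tested genes, 7 with a negative value, a median of -0.261 and 0 past the threshold. Pck1, which commits carbon to gluconeogenesis, had 285.4, 233.1, 231.2 and 411.7 CPM in HF mice, against 302.4, 377, 538.2 and 900.6 CPM in N mice. It had 904.3, 473.7, 441.6 and 393.1 CPM in HFW mice, against 1232, 911.8, 972.9 and 765.7 CPM in NW mice. HFW mouse 34, at 904.3 CPM, lay inside the range of NW, and the other HFW mice lay below it. For Pck1 it was -0.82 on the log2 scale (SE 0.23, adjusted p = 0.0614, edgeR quasi-likelihood test), -0.85 without and -0.80 with the extract. Fbp1, a gluconeogenic phosphatase, had -0.47 (SE 0.20), and Pgk1, a kinase of glycolysis, -0.66 (SE 0.27). The count of 0 became 2 of 10 without N mouse 4, Fbp1 and Pck1, and 1, Pck1, without HF mouse 29 or HFW mouse 34.

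**Figure D4:**
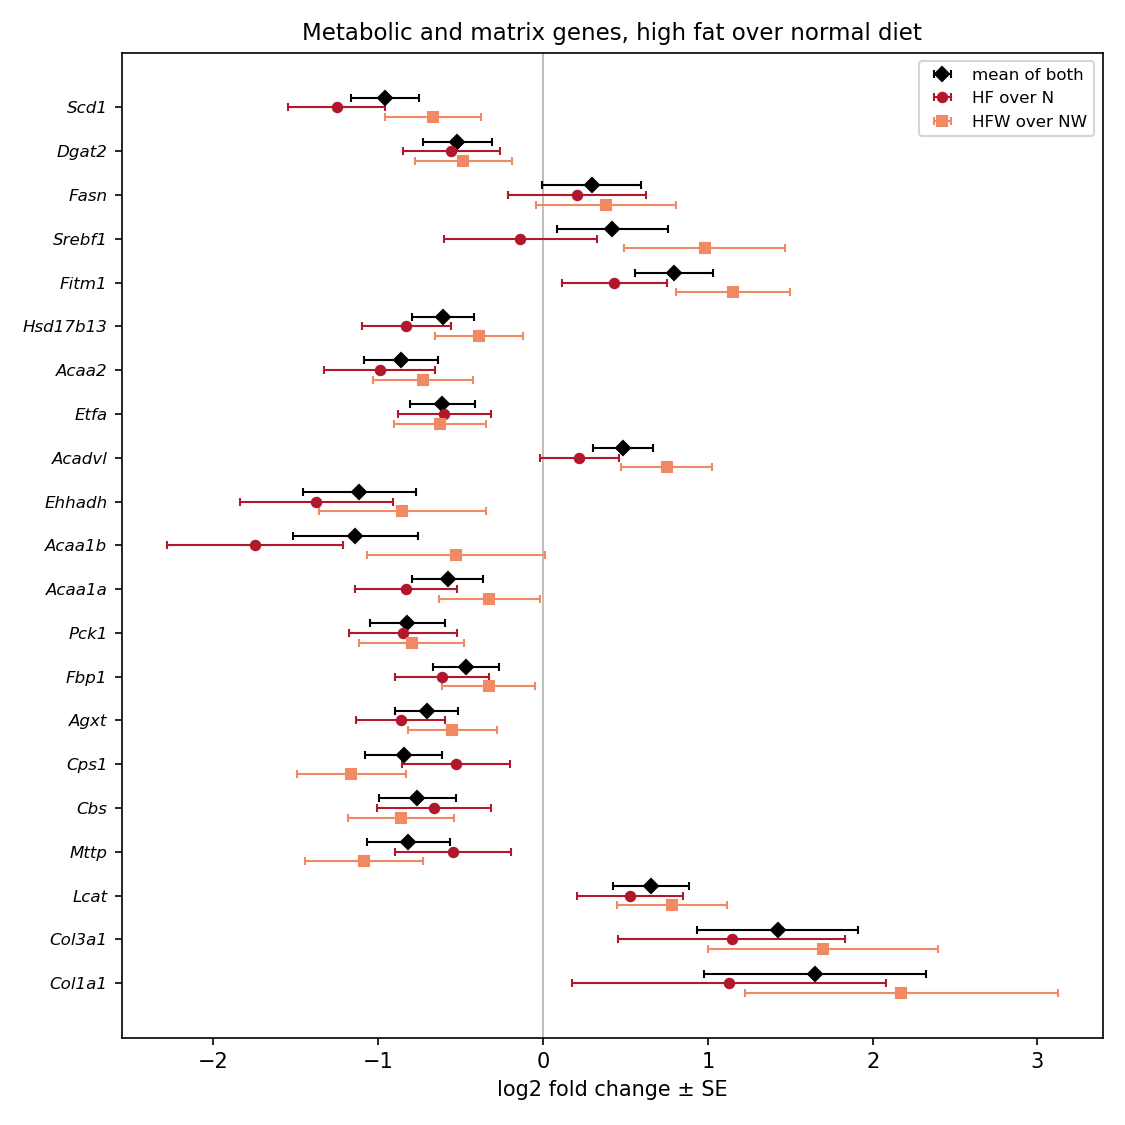
Log2 fold change of high fat over normal diet (x axis) with its SE for 21 genes of lipid and glucose metabolism, amino acid breakdown, lipoproteins and collagen, as the mean of both extract states (black), HF over N (red) and HFW over NW (orange). Of these genes Scd1 passed the threshold in the mean effect, and Srebf1 has values of opposite sign in the 2 contrasts.

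Lipoproteins and their remodelling had 12 tested genes, 9 of them negative, with a median of -0.213 and 0 past the threshold. Mttp, which loads lipid onto apolipoprotein B, had 86.17 to 214 CPM in HF and 104.8 to 256.6 CPM in HFW, against 168 to 344.7 CPM in N and 216 to 461.9 CPM in NW. Its log2 fold change was -0.82 (SE 0.25, adjusted p = 0.0772, edgeR quasi-likelihood test). Abca1, which exports cholesterol to apolipoprotein A1, had -0.54 (SE 0.23), and Apob, the structural protein of very low density lipoprotein, -0.34 (SE 0.17). Lcat, which esterifies cholesterol in plasma, had 0.66 (SE 0.23), and Apoc1, a small apolipoprotein, 0.42 (SE 0.17). For Lcat the N mice were spread from 2571 to 8452 CPM, with N mouse 4 above every HF mouse. Lcat and Apoc1 rose and Mttp fell when that mouse was left out, 3 of 13 genes then tested.

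Amino acid catabolism and the urea cycle had 23 tested genes, 17 negative and 6 positive, with a median of -0.352 and 0 past the threshold. Agxt, which clears glyoxylate in peroxisomes, had 891.9, 656.9, 721.5 and 1235 CPM in HF mice, against 907.3, 2003, 1914 and 1520 CPM in N mice. It had 1861, 1263, 1156 and 1753 CPM in HFW mice, against 1944, 2409, 2305 and 2219 CPM in NW mice. Every HFW mouse was below every NW mouse, and N mouse 4 lay inside the range of HF. Agxt thus had -0.71 on the log2 scale (SE 0.19, adjusted p = 0.0614, edgeR quasi-likelihood test). Cps1, the first enzyme of the urea cycle, had 3524 to 10320 CPM in HF and 5152 to 11190 CPM in HFW, against 6351 to 16090 CPM in N and 10680 to 25110 CPM in NW. This was -0.85 on the log2 scale (SE 0.23). Cbs, which joins homocysteine and serine, had -0.76 (SE 0.24), and Cdo1, which oxidises cysteine, had -0.57 (SE 0.20). Tst, a mitochondrial sulfurtransferase, had a positive value, 0.77 (SE 0.25). In the fit without N mouse 4, 5 of 27 genes passed, of which Agxt, Cbs, Cdo1 and Cps1 fell and Tst rose. Agxt alone passed without HF mouse 29 or HFW mouse 40, and Tst alone without HF mouse 28.

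Agxt, Pck1, Cps1 and Hsd17b13 are also on the list of periportal genes. Of its 11 tested members 10 were negative, with a median of -0.595, the lowest of the lists with at least 3 tested members, and 0 passed. With N mouse 4 left out, 5 of the 11 fell, Agxt, Cps1, Fbp1, Hsd17b13 and Pck1. In that fit 45 of all 1205 genes tested fell (3.73%). The periportal count was 2 without HF mouse 29 (Agxt and Pck1), 1 without HFW mouse 34 (Pck1) and 1 without HFW mouse 40 (Agxt). Over all genes tested, those fits had 16 of 1079, 4 of 1067 and 11 of 1067 past the threshold. Pericentral genes had 8 tested members, 5 of them negative, with a median of -0.0632. Cyp2e1, a pericentral cytochrome, had -0.93 (SE 0.41), with 1387 to 4602 CPM in HF and 1520 to 8093 CPM in HFW, against 1630 to 10810 CPM in N and 5085 to 10790 CPM in NW; its tag is found in 1 other gene. General hepatocyte markers include some periportal and pericentral genes. Their summed level was 18380 to 32070 CPM in HF and 28010 to 32510 CPM in HFW, against 23000 to 41560 CPM in N and 34380 to 52540 CPM in NW, so HF and N overlapped and HFW and NW did not. Of the 12 tested hepatocyte markers 10 had a negative log2 fold change, with a median of -0.359 and 0 past the threshold, and 1, Cps1, fell without N mouse 4. Their part in the values of the metabolic lists was not tested.

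Xenobiotic metabolism had 15 tested genes, of which 1 rose, Ephx1, and 12 had a negative value, with a median of -0.332. Ces3b, a liver carboxylesterase, had -1.05 (SE 0.31, adjusted p = 0.0772, edgeR quasi-likelihood test), and Por, which supplies electrons to the cytochromes, had -0.53 (SE 0.29). Ephx1 thus stood at the other end of the list from most of its members. Ces3b passed as a gene that fell when N mouse 4 or HFW mouse 40 was left out, and with the DESeq2 Wald test on all mice. Glutathione, UDP-glucuronosyl and sulfotransferases had 9 tested genes, 5 positive and 4 negative, with a median of 0.282 and 0 past the threshold. Mgst1 had 0.62 (SE 0.26), Gstp1 0.42 (SE 0.24) and Gsta3 0.36 (SE 0.20), while Ugt2b34 had -0.49 (SE 0.28). Gsta2 was below the filter with all mice, so it has no value in the main fit. It was tested and passed as higher without N mouse 4, HFW mouse 36, HFW mouse 38 or NW mouse 20. Those fits let in more genes, 1205 to 1217 against 1046. Which libraries carried Gsta2 past the filter was not examined, so these calls are not counted as a rise. Antioxidant genes had 9 tested members, 7 of them positive, with a median of 0.307 and 0 past the threshold. Gclc, which makes the first bond of glutathione, had 0.49 (SE 0.18), and Sephs2, which supplies selenium for selenoproteins, 0.74 (SE 0.26), while Sod1, the cytosolic superoxide dismutase, had -0.52 (SE 0.25). Of these Sephs2 rose without N mouse 4.

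Genes of the endoplasmic reticulum and its stress response had 9 tested members, 6 positive and 3 negative, with a median of 0.246 and 0 past the threshold. Pdia6 and P4hb, which form disulfide bonds, had 0.72 (SE 0.29) and 0.42 (SE 0.20). Kdelr1, which returns escaped proteins to the endoplasmic reticulum, had 0.59 (SE 0.25), and Sec61a1, the channel through which new proteins enter it, had -0.56 (SE 0.20). Without N mouse 4 Kdelr1 rose and Sec61a1 fell. Secreted hepatocyte and acute-phase proteins had 33 tested members, 14 positive and 19 negative, with a median of -0.174 and 0 past the threshold. Gc, the vitamin D carrier, had -0.68 (SE 0.22), Serpina1c, a protease inhibitor, -0.70 (SE 0.25), Fgg, a fibrinogen chain, -0.52 (SE 0.21), and ceruloplasmin (Cp) -0.55 (SE 0.23), of which Gc fell without N mouse 4. Hemopexin (Hpx), which binds haem, had 0.50 (SE 0.24), with -0.02 in HF minus N and 1.03 in HFW minus NW.

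Bile acid synthesis and transport had 5 tested genes, all negative, with a median of -0.33 and 0 past the threshold; the transporter Slc10a1, which takes bile acids up from blood, had -0.42 (SE 0.21). Cyp7a1, the rate-limiting enzyme of bile acid synthesis, was below the filter, with 55 tags over the high-fat libraries and 27 over the normal-diet libraries. Cholesterol synthesis and uptake had 3 tested genes, 2 positive and 1 negative, and 0 past the threshold.

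Stellate cell and fibrosis markers had 4 tested genes, all positive, with a median of 1.26, and 0 passed. Col3a1, a fibrillar collagen, had 237.8, 741.7, 2747 and 440.4 CPM in HF mice, against 722.5, 452.4, 463.4 and 243.9 CPM in N mice. It had 2988, 710.6, 1998 and 924.2 CPM in HFW mice, against 192.5, 489.5, 655.7 and 706.8 CPM in NW mice. HF mouse 29 lay inside the range of N, HF mouse 25 just above it and HF mouse 23 just below it. Every HFW mouse was above every NW mouse, the closest at 710.6 CPM against 706.8 CPM. HF mouse 28, HFW mouse 34 and HFW mouse 38 were high. The log2 fold change of Col3a1 was 1.42 (SE 0.49, adjusted p = 0.134, edgeR quasi-likelihood test). Col1a1 had 1.65 (SE 0.67) and Col1a2 1.09 (SE 0.53), and those 3 mice also had the highest Col1a1 values, 471.7 CPM in HF mouse 28, 760.1 CPM in HFW mouse 34 and 336.4 CPM in HFW mouse 38. Col1a1 tags were few, 1 to 51 in HF, 3 to 58 in HFW, 2 to 9 in N and 0 to 10 in NW. Reln, the other tested marker, had 0.16 (SE 0.31). The summed level of the 22 listed stellate markers was 677.8 to 4708 CPM in HF and 1046 to 4967 CPM in HFW, against 731.7 to 1344 CPM in N and 577.4 to 1375 CPM in NW. This sum is not separate from the collagens. Beside the Col3a1 and Col1a1 values above, it includes Col1a2 at 980.5 CPM in HF mouse 28 and 720.8 CPM in HFW mouse 34. Acta2, Lox, Rgs5, Tagln and Timp1 were at 0 in all libraries. At this depth 0 tags do not show that a gene was absent. The part of stellate cells in these values was not tested.

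Inflammation and interferon response had 4 tested genes, all positive, with a median of 0.289 and 0 past the threshold. B2m, the light chain of class I antigen presentation, had 0.54 (SE 0.20), and Irf1, an interferon-regulated factor, 0.34 (SE 0.21), beside the negative value of Iigp1 above, which is on no list here. B2m rose when N mouse 4 was left out. Macrophage markers had 3 tested genes, 2 positive and 1 negative, with a median of 0.153 and 0 past the threshold. Mpeg1, a macrophage pore-forming protein, had 0.36 (SE 0.40), with 1.04 in HF minus N and -0.33 in HFW minus NW. The complement subunits C1qa and C1qc had 0.15 (SE 0.21) and -0.16 (SE 0.27). The summed macrophage markers were 766 to 1545 CPM in HF and 671.1 to 1900 CPM in HFW, against 1012 to 1256 CPM in N and 750.6 to 1219 CPM in NW. Among the 25 measured macrophage markers, 6 were at 0: Aif1, Cd14, Cd68, Ctss, Fcgr1 and Lyz2. Lymphocyte, red blood cell and adipocyte and pancreas markers had 0 genes with enough tags to be tested, and their sums stayed at or under 126.2, 288.7 and 28.79 CPM in any mouse.

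Among the other lists, 0 genes passed. The growth hormone and insulin-like growth factor axis had 1 positive and 2 negative values. Igfals, which keeps insulin-like growth factors in the blood, had 0.48 (SE 0.22), and Ghr, the growth hormone receptor, -0.44 (SE 0.23). The clock list had 1 positive and 3 negative values, with -0.41 (SE 0.19) for Tef, a clock output factor. Oxidative phosphorylation subunits (6 tested), cytosolic ribosomal proteins (5), mitochondrial ribosomal proteins (3) and proteasome subunits (4) had medians of -0.0924, -0.282, 0.282 and 0.15, with 3, 1, 2 and 2 positive values. Single members were Rpl10a with 0.60 (SE 0.23), the 1 positive cytosolic ribosomal protein, whose tag is found in 2 other genes, Mrps14 with 0.58 (SE 0.22) and Psmb6 with 0.81 (SE 0.32). Igfals and Mrps14 rose and Trfr2 fell without N mouse 4. The largest share of any single library belonged to Lars2, a mitochondrial leucyl-tRNA synthetase, with 9.704% of the tags in N mouse 8. Lars2 was not the top gene in every library. It held 4.98% ± 1.79 of the tags in HF and 6.55% ± 1.14 in HFW, against 6.11% ± 2.54 in N and 8.29% ± 0.455 in NW (SD, n = 4 each). Its log2 fold change was -0.37 (SE 0.20).

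**Figure D5:**
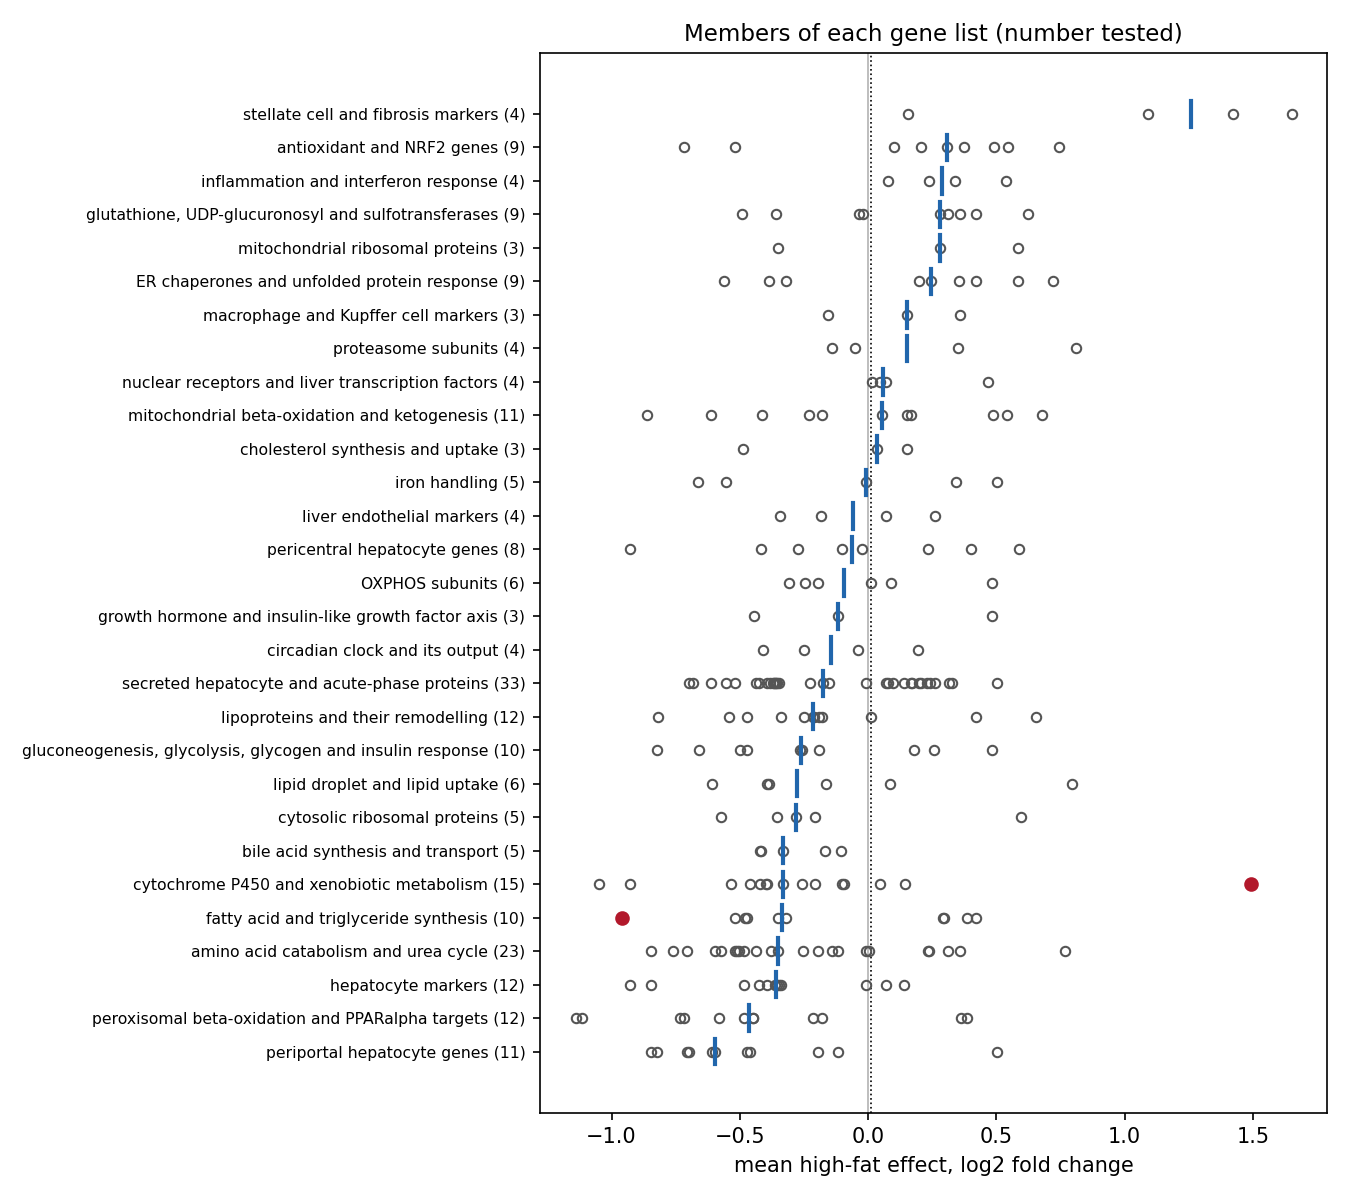
Mean high-fat effect (log2 fold change, x axis) of each tested member of the gene lists with at least 3 tested members (y axis, number tested in brackets), with members past the threshold filled red. The blue bar is the list's median and the dotted line the median of all 1046 genes, 0.0123. Scd1 and Ephx1 are the members past the threshold, periportal genes have the lowest median and stellate markers the highest.

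Fewer genes passed for the diet than for the extract in the same fit. The high-fat count ran from 0 to 107 when single mice were left out, and the WEPAK count was not refitted that way. The mean WEPAK effect had 327 genes past the threshold (31.3%) and the mean high-fat effect 6, and the median absolute log2 fold change over all genes was 0.409 for WEPAK and 0.279 for high fat. Both effects use all 16 libraries, so their values are given side by side and not as an overlap. Fbxo3 had -1.04 for high fat and 1.32 for WEPAK (adjusted p = 0.000118, edgeR quasi-likelihood test). Ephx1 had 1.49 for high fat and -1.04 for WEPAK, Glrx5 0.94 and -0.86, and Chmp4b 0.86 and -0.94, and these 3 also passed for WEPAK. Scd1 had -0.96 for high fat and 0.41 for WEPAK (adjusted p = 0.127, edgeR quasi-likelihood test). Iigp1 had -1.28 for high fat and 0.55 for WEPAK (adjusted p = 0.19, edgeR quasi-likelihood test).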

How the data were processed

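Per the labels' protocols, liver RNA was copied from an oligo-dT primer, cut with NlaIII and EcoP15I to release tags, given index adapters and amplified by PCR, with no molecular identifiers named. The deposited table holds raw counts of tags for each RefSeq transcript and mouse, per the file headers. No source used here gives the tag matching, genome build, RefSeq release or preparation batches.

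Of 26782 rows, 417 (0.0729% of tags) had no usable gene symbol and were left out. Of 41 symbols turned into dates, 40 were restored. Counts were summed per symbol (20826 symbols, 10171 with a tag); library totals were 56684 to 149464 tags. Libraries of a group differed by more than sampling noise, the chi-square over its degrees of freedom lying between 2.24 and 9.64.

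Counts were fitted in R 4.3.3 with edgeR 4.0.16 (TMM, default filter at a minimum count of 10, robust quasi-likelihood, a mean per group, all 16 libraries), with Benjamini-Hochberg adjustment at 0.05. SE is the log2 fold change over the root of F. Library values were tested by an exact two-sided permutation within extract states (4900 arrangements). In 5 simulations of the mean effect with 200 changed genes of 1046, the test found 31.9% of the 1.5-fold changes, 84.5% of the 2-fold and 100% of the 4-fold, and 4.64% of calls were false.

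Named genes were the 12 genes in each direction with the smallest p, up to 4 members of each list by p, 3 genes with the smallest interaction p, 10 genes fixed by name and genes above 1% of a library; of these, some near 0 and some abundant ones are not printed, and some others are not reported here. The comparison, lists and rule were chosen with earlier results of these data known, so lists are described by counts and medians. Alternatives used DESeq2 1.42.0 and limma 3.58.1, among others. Tags were located by matching the last NlaIII site of GENCODE M21 transcripts on GRCm38, a release that need not be the one the authors used.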

Additional observations from a re-analysis of the deposited data

Results flagged for a closer look

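In groups of 4 mice, a single value was marked where its gap to the nearest other mouse was large against the group's range (Dixon's test at the 95% level). This held for 27 of 352 groups (7.67%), where chance gives about 1 in 20. In HF, mouse 29 had 1302 CPM of Ptprf (others 963.2 to 1017) and 16890 CPM of Dgat2 (others 9525 to 10270). HF mouse 23 had 321.1 CPM of Agpat3 (others 392.6 to 402.6) and 154.6 CPM of Acaa1b (others 28.72 to 37), and HF mouse 28 had 2312 CPM of B2m (others 1130 to 1300).

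In HFW, mouse 34 had 904.3 CPM of Pck1 (others 393.1 to 473.7), 720.8 CPM of Col1a2 (others 116.9 to 157.9) and 65.53 CPM of Tm7sf2, a sterol reductase (others 286.8 to 315.8). HFW mouse 40 had 308.1 CPM of Eef1b2 (others 473.7 to 504.6) and 3017 CPM of Slc27a2 (others 1822 to 2019). HFW mouse 38 had 168.2 CPM of Pcsk6 (others 78.63 to 84.99), and HFW mouse 36 had 1678 CPM of B2m (others 1206 to 1222).

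In N, mouse 4 was above the others for 4 genes. It had 1059 CPM of Chmp4b (others 667.8 to 731.7), 252 CPM of Pcsk6 (others 44.85 to 75.4), 8452 CPM of Lcat (others 2571 to 3498) and 3764 CPM of Igfals (others 1238 to 1573). N mouse 5 had 473.9 CPM of Acsl1 (others 856.9 to 900.6), and N mouse 8 had 8537 CPM of Mup19 (others 1596 to 2693).

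In NW, mouse 20 had 2749 CPM of Aspg (others 2252 to 2263), 2238 CPM of Srebf1 (others 465.3 to 500.4), 589 CPM of Lcat (others 1382 to 1463), 274.9 CPM of Serpina1c (others 444.2 to 461.9) and 216 CPM of Strbp (others 148.1 to 154). NW mouse 12 had 1017 CPM of Slc10a1 (others 569.4 to 577.4) and 403.1 CPM of Pqlc1 (others 577.4 to 592.2). Its library held 120143 tags (others 57642 to 60767). NW mouse 15 had 211.5 CPM of Col1a2 (others 96.24 to 115.2). Rows with no gene symbol, outside every comparison, held 0.0729% of all tags.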

How the results depend on the processing

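The mean high-fat effect had 6 genes past the threshold. It had 30 with no filter (25 higher, 5 lower), 3 with a stricter filter that left 579 genes, 34 with the DESeq2 Wald test (15 higher, 19 lower) and 55 without N mice 4 and 8; leaving out single mice gave 0 to 107. The DESeq2 genes held 4 of the 6, and Ephx1 and Iigp1 had no adjusted p there. It had 8 with DESeq2 size factors, 4 with limma-voom, 5 with a non-robust fit, 7 with an additive model, 9 with libraries thinned to 56655 tags, 6 without the 10 most abundant genes and 8 over RefSeq rows. HF minus N had 2 genes with the DESeq2 Wald test and 0 to 31 when single mice were left out, HFW minus NW had 0 to 3, and the interaction had 0 in each. Over the named genes and alternatives, 2031 values kept direction and side of the threshold, 123 passed newly and 55 no longer passed. St3gal5 was the 1 reversal, at -0.01302 without HFW mouse 34, with 0.2319 as the highest value when single mice were left out. No paired analysis was possible because no mouse number is shared between groups. The cause of these shifts was not tested. In simulations at these depths with 200 changed genes of 1046, 2-fold changes were found in 84.5% of cases and 1.5-fold changes in 31.9%. An adjusted p under 0.05 is harder to reach where fewer genes change, and 6 passed here. These rates therefore need not hold for the data, and changes of either size can be missed.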
